A study of Mus musculus with 21 samples.

Results

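The genes described here are 10 genes of the amino acid stress response driven by ATF4: Atf4 itself, the asparagine synthetase Asns, the serine synthesis genes Phgdh, Psat1 and Psph, the mitochondrial one-carbon genes Shmt2 and Mthfd2, and the stress genes Ddit3, Trib3 and Chac1. They were chosen by symbol, and all 10 were found among the 34478 genes of the deposited RNA-seq table. RNA was measured in 6 murine pancreatic ductal adenocarcinoma (PDAC) cell lines, #3, #4, #6, #7, #9 and #10, in parental cells (6 samples), resistant cells (6), P5 cells (3, from lines #3, #7 and #9) and P12 cells (6), 21 samples in all. Every line came from a tumor of a mouse that carried Ptf1awt/Cre and Trp53loxP/loxP, in which Cre from the Ptf1a locus deletes Trp53 in pancreatic cells, so the parental controls carry these alleles too. Parental cells had never met a MEK inhibitor (MEKi). Resistant cells were grown in trametinib, a MEKi, at 100 times the IC50 of their line after stepwise dose increases, and P5 and P12 cells were resistant cells passaged 5 and 12 times without the drug. For P5 of lines #7 and #9 the sample descriptions give 12 drug-free passages where titles and group labels give P5, and the name P5 is kept for all 3. All cells grew in high-glucose DMEM with fetal bovine serum and non-essential amino acids, a supplement that holds asparagine, serine and glycine. A line gave 1 sample per state, and the 6 lines serve as replicates. The study describes a resistant population as clonally expanded, from whole genome sequencing of lines #3 and #9. This limits how far a resistant sample stands for all cells of its line, and the other lines here were not sequenced in that way.

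ATF4 is a transcription factor of the integrated stress response. Kinases that sense missing amino acids (GCN2, gene Eif2ak4), misfolded protein in the endoplasmic reticulum (PERK, gene Eif2ak3) or other stresses phosphorylate eIF2α, which slows translation in general while the Atf4 mRNA is translated more, so that the RNA level of Atf4 need not follow the protein. ATF4 then activates genes for the synthesis, import and tRNA charging of amino acids and, under lasting stress, Ddit3, which encodes CHOP. ATF4 binds DNA with C/EBP partners at the C/EBP-ATF response element.

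To show where such an element lies, the 250 bases before the RefSeq transcription start (build GRCm38.p6) were searched on both strands for TGATGNAAN, in which N is any base. A match was found for 2 of the 10 genes (20%) and for 1052 of 27025 genes in all (3.89%). The promoters of Asns (chr6:7693210-7693459, minus strand) and Chac1 (chr2:119350992-119351241, plus strand) are shown because they hold the matches, and that of Ddit3 (chr10:127290543-127290792, plus strand) because Ddit3 was the gene of the 10 that passed the strict threshold in resistant cells and holds no match in this window. They are written 5′ to 3′ in the direction of the gene, in lower case, with the match in capitals.
Asns: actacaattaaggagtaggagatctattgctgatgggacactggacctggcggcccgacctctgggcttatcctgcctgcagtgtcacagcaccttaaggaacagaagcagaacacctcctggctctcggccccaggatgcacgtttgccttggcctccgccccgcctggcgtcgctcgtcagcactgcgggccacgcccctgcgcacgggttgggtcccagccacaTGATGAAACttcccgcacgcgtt
Chac1: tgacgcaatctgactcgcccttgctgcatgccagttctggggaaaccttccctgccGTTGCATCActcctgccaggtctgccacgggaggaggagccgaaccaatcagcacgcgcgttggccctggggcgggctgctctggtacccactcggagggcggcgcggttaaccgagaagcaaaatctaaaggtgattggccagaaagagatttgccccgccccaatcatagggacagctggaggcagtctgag
Ddit3: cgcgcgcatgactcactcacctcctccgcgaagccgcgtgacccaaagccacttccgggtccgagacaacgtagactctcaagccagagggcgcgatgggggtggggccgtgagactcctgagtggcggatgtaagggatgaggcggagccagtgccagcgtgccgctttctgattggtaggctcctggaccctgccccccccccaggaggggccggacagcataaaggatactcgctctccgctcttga
In Asns the match lay 23 to 15 bases upstream of the start on the strand of the gene, and in Chac1 194 to 186 bases upstream on the opposite strand. A match is a run of letters and was not tested as a binding site.

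The reads behind a sample were estimated at 24.1 to 42.7 M with a median of 32.5 M, and 3 reads corresponded to 2.31 to 4.07 normalized counts. The 10 genes lay between 111 and 21623 normalized counts in every sample, far above this level, and all 10 passed the filter that left 19300 genes for testing. The summed level of 9 MAPK output genes, which follow MEK activity, was 45431 to 56454 normalized counts in parental, 1410 to 13721 in resistant, 39175 to 66853 in P5 and 32254 to 58007 in P12 cells, so samples on and off the drug did not overlap. The epithelial keratin Krt18 had a median of 56911 normalized counts in parental and 13349 in resistant cells, and line #9 was the lowest in each state, with 79.2 in resistant cells. The difference of Krt18 did not pass (log2 fold change -2.76, SE 1.59, limma adjusted p = 0.264). Cdh1 was lower in resistant cells (-7.11, adjusted p = 0.0173), while Krt8 (-1.81, adjusted p = 0.503) and Krt19 (-1.57, adjusted p = 0.668) did not pass. Epcam was listed at 0 in all parental, resistant and P12 samples. The sum of 5 fibroblast markers was 36.9 to 3221 normalized counts in parental and 1429 to 66250 in resistant cells. In resistant cells of all lines but #9 the sum was carried mainly by Dcn. Dcn was at 0.935 to 19.8 normalized counts in parental and 268 (line #9) to 65968 in resistant cells and was called. In line #9 Pdgfrb was higher than Dcn, at 2792 normalized counts in parental and 17519 in resistant cells. Pdgfra (log2 fold change -1.13, limma adjusted p = 0.599), Pdgfrb (2.91, adjusted p = 0.448) and Dpt (1.31, adjusted p = 0.643) did not pass. The 4 immune markers summed to 136 to 423 in all states and 3 endothelial markers to 10.5 to 886. The part of these markers in the results that follow was not tested. In bulk RNA, fewer cells of a type and less RNA per cell cannot be told apart. The paper reports enriched transcripts of the epithelial-mesenchymal transition in resistant cells, with less CDH1 and more CDH2 protein. It holds that using tumor cell populations lessens the influence of contaminating non-tumor cells.

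In resistant cells Ddit3, Chac1 and Psph rose against parental cells, and Phgdh was the gene of the 10 with a lower mean level. By the strict threshold of the study (adjusted p below 0.01 and log2 fold change beyond 1 in either direction, limma), 1 of the 10 genes was called, Ddit3, against 5.3% of all genes tested. At an adjusted p below 0.05 alone, 3 of the 10 rose (Ddit3, Chac1 and Psph) and 0 fell, against 15.6% of all genes in either direction (7.73% higher and 7.9% lower), and 7 of the 10 had an unadjusted p below 0.05, against 29.2% of all genes. With the cell line as a block, which compares each line with itself, 6 of the 10 passed an adjusted p of 0.05, 5 of them higher and 1 lower, against 26% of all genes (12.8% higher and 13.2% lower), and Ddit3 was again the 1 gene called by the strict threshold, against 10.5%. The median log2 fold change was 0.83 for the 10 genes and -0.005 for all genes tested.

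**Figure D1:**
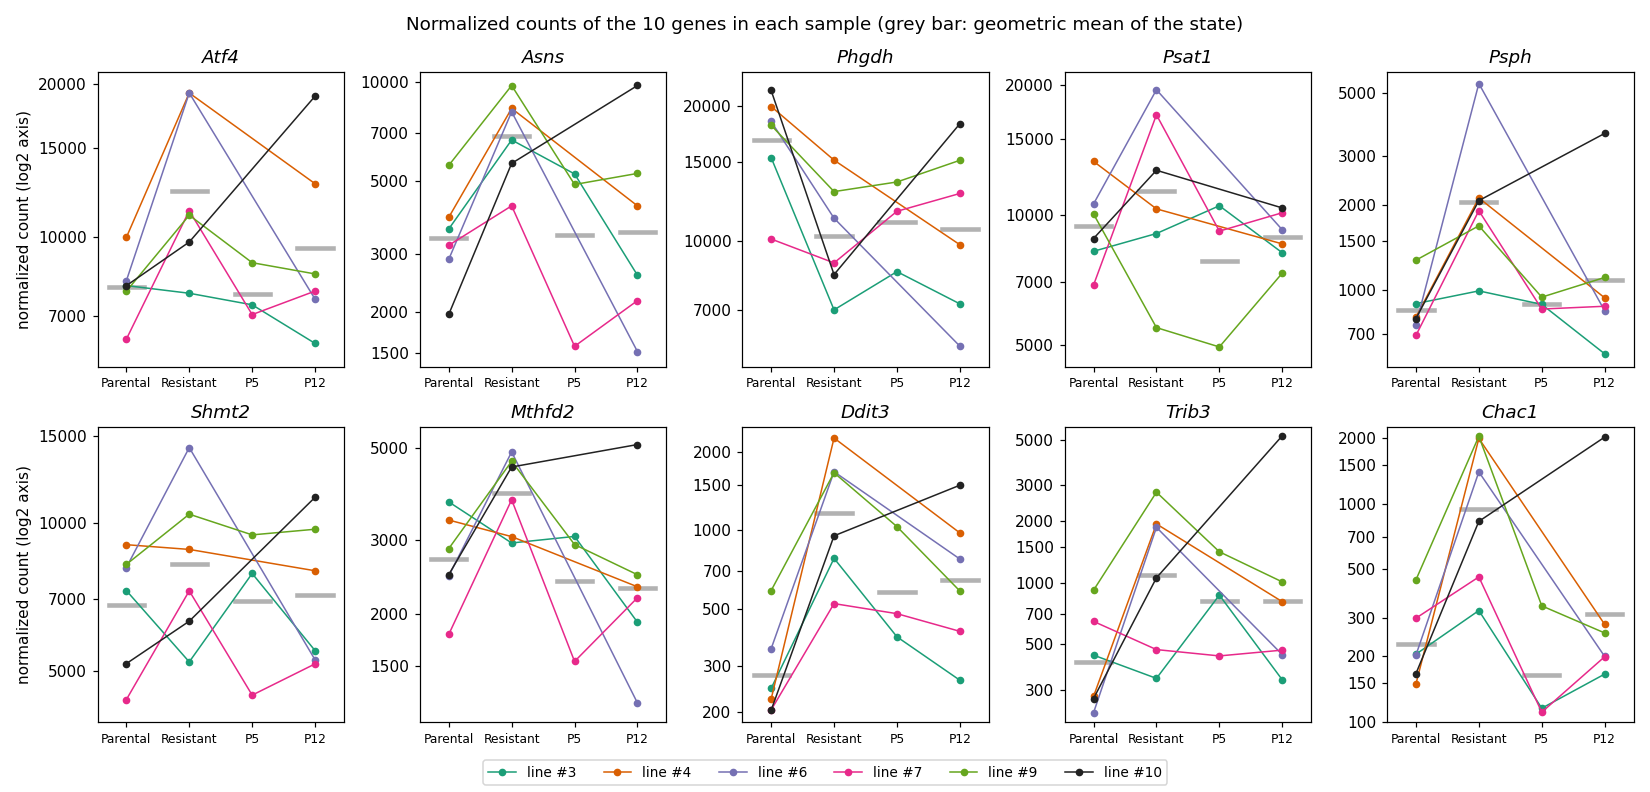
Normalized counts (vertical axis, log2 scale) of each of the 10 genes in parental, resistant, P5 and P12 cells (horizontal axis). Points are samples joined by cell line, and grey bars are the geometric means of a state. Ddit3 was higher in resistant than in parental cells of all 6 lines, and line #10 (black) stood above the other lines in P12 for all 10 genes.

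Ddit3 encodes CHOP, a transcription factor that can push stressed cells towards apoptosis. Its level went from 246 in parental to 780.5 normalized counts in resistant cells of line #3, from 224 to 2269 in line #4, from 350.0 to 1682 in line #6, from 203 to 522 in line #7, from 586 to 1667 in line #9 and from 203 to 953 in line #10. It was higher in resistant cells in 6 of 6 lines, although the highest parental sample (line #9) lay above the lowest resistant sample (line #7), so that the groups overlapped. The means were 302 ± 149 (SD, n = 6) and 1312 ± 665 (n = 6), and Ddit3 rose 4.16-fold (log2 fold change 2.06, SE 0.43, limma adjusted p = 0.00331, range over all alternatives 0.000444 to 0.0243). Without line #4, #6 or #10 the adjusted p was 0.0243, 0.0207 or 0.0117, so the strict call rests on each of these lines. Differences between states accounted for 58.8% of the variance of Ddit3 over the 18 parental, resistant and P12 samples and differences between lines for 22.0%, against medians of 19.8% and 35.8% over all genes tested.

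Chac1 encodes a glutathione-degrading enzyme. In parental cells it was at 149 to 447 normalized counts with a median of 203, and in resistant cells at 323 to 2034 with a median of 1113. Resistant cells of lines #3 and #7, at 323 and 461, lay within or just above the parental range, and those of the other 4 lines at 829 to 2034. Chac1 was higher in 6 of 6 lines and rose 4.14-fold at the wider threshold (log2 fold change 2.05, SE 0.57, limma adjusted p = 0.0209, range over all alternatives 0.00452 to 0.109). Trib3, a pseudokinase that restrains ATF4 and AKT signalling, was at 232 to 919 normalized counts (median 361) in parental and 341 to 2768 (median 1461) in resistant cells. It was lower in resistant cells of lines #3 and #7 and higher in the other 4 lines, with differences from -0.46 to 3.00 on the log2 scale, and the mean difference did not pass (log2 fold change 1.42, SE 0.62, limma adjusted p = 0.132).

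Of the 3 serine synthesis genes, Psph rose, Phgdh was lower in every line and Psat1 moved both ways. Psph, the phosphatase that releases serine, was at 691 to 1278 normalized counts (median 798) in parental and 995 to 5416 (median 1998) in resistant cells. The highest resistant sample was line #6, and the lowest, line #3, lay below the parental sample of line #9. Psph was higher in 6 of 6 lines and rose 2.42-fold at the wider threshold (log2 fold change 1.28, SE 0.37, limma adjusted p = 0.0252, range over all alternatives 0.00591 to 0.119). Phgdh, the dehydrogenase that draws 3-phosphoglycerate from glycolysis into serine, was at 10092 to 21623 normalized counts (median 18264) in parental and 7017 to 15124 (median 10079) in resistant cells. It was lower in 6 of 6 lines, from -0.18 in line #7 to -1.36 in line #10 on the log2 scale, and the mean difference passed an adjusted p of 0.05 with the cell line as a block and not without (log2 fold change -0.71, SE 0.26, limma adjusted p = 0.0748, 0.0345 with the block). Psat1, the transaminase between them, was at 6876 to 13295 (median 9429) in parental and 5482 to 19475 (median 11500) in resistant cells, higher in 4 lines and lower in 2 (log2 fold change 0.27, SE 0.26, adjusted p = 0.533).

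Asns, which makes asparagine from aspartate and glutamine, was at 1962 to 5564 normalized counts (median 3375) in parental and 4194 to 9728 (median 7372) in resistant cells. It was higher in 6 of 6 lines, by 0.40 to 1.52 on the log2 scale, but the parental sample of line #9 lay above the resistant sample of line #7. Asns did not pass an adjusted p of 0.05 in the fit of all samples without a block, and passed with the cell line as a block and without the P12 sample of line #10 (log2 fold change 1.04, SE 0.39, limma adjusted p = 0.0813, 0.0376 and 0.0473 in the latter fits, range over all alternatives 0.0109 to 0.181). That P12 sample was left out after its values were seen. Atf4 was at 6309 to 9995 normalized counts (median 8040) in parental and 7767 to 19216 (median 11167) in resistant cells, where lines #4 and #6 were the highest. It was higher in 5 of 6 lines, line #3 being the other, and likewise passed with the block alone (log2 fold change 0.62, SE 0.25, limma adjusted p = 0.1, 0.0427 with the block).

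The mitochondrial one-carbon enzymes, which break serine down into formate, did not pass either threshold. Mthfd2 was at 1782 to 3706 normalized counts (median 2671) in parental and 2953 to 4881 (median 4121) in resistant cells, higher in 4 lines and lower in lines #3 and #4 (log2 fold change 0.53, SE 0.27, limma adjusted p = 0.211). Shmt2 was at 4363 to 9024 (median 7692) in parental and 5208 to 14227 (median 8047) in resistant cells (log2 fold change 0.28, SE 0.27, adjusted p = 0.548). State accounted for 6.75% of the variance of Shmt2 and 12.2% of that of Psat1, the lowest shares among the 10 genes.

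The lines differed in how far the genes moved together. In line #6, 9 of the 10 genes were higher in resistant than in parental cells, with a median difference of 1.36 on the log2 scale, and in line #10 also 9, with a median of 1.12. In line #3, 5 were higher and 5 lower, with a median of 0.04. The differences there ran from -1.13 for Phgdh to 1.66 for Ddit3, with Asns at 0.90. In lines #4, #7 and #9, 6, 8 and 8 genes were higher, with medians of 1.02, 0.79 and 0.60. Over all genes tested, the median difference of a line lay between -0.03 and 0.02.

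**Figure D2:**
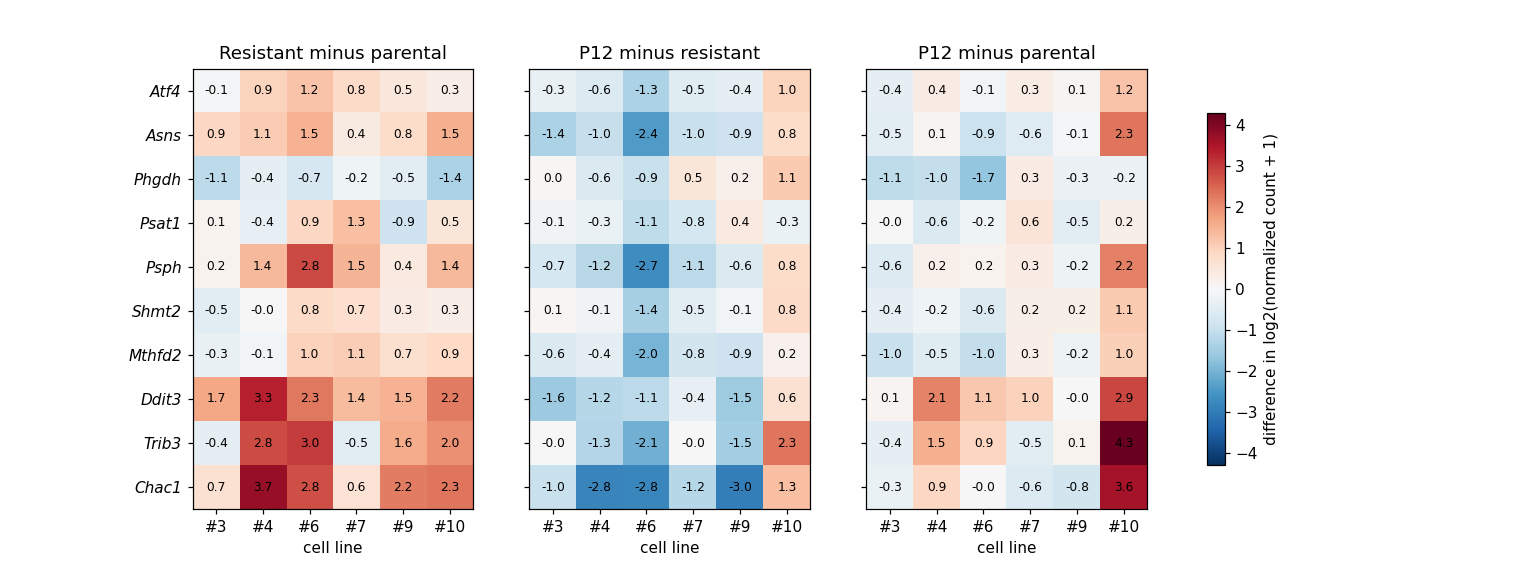
Differences in log2(normalized count + 1) of each of the 10 genes (vertical axis) in each cell line (horizontal axis), for resistant minus parental, P12 minus resistant and P12 minus parental cells, with red for higher and blue for lower. Phgdh is lower in resistant than in parental cells of all 6 lines, line #3 shows differences both ways in resistant cells, with Ddit3 the highest and Phgdh the lowest, and line #10 is red in P12 minus resistant for 9 of the 10 genes.

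After 12 drug-free passages 9 of the 10 genes had a lower mean level than in resistant cells, but none passed the test. Phgdh was the exception, higher in P12 in lines #3, #7, #9 and #10 and lower in lines #4 and #6 (log2 fold change 0.06, SE 0.26, limma adjusted p = 0.942). The comparison uses the same resistant samples as the one above, and its values are given for themselves. With limma, 0 of the 10 genes were called, against 2.13% of all genes, 0 had an adjusted p below 0.05, against 6.22%, 4 had an unadjusted p below 0.05, against 19.8%, and the median log2 fold change was -0.59 (0.02 for all genes). The fold changes with the lowest adjusted p were those of Mthfd2 (-0.76, SE 0.27, adjusted p = 0.115), Chac1 (-1.59, SE 0.57, adjusted p = 0.115), Psph (-0.92, SE 0.37, adjusted p = 0.161) and Asns (-0.97, SE 0.39, adjusted p = 0.166). Taking the cell line as a block, limma gave these 4 genes adjusted p of 0.0699, 0.0606, 0.104 and 0.0783. In that fit 0 of the 10 passed 0.05, where 2454 of 19300 genes did. In line #4 and in line #6 all 10 genes were lower in P12 than in resistant cells, in line #7 9 of them, and in lines #3 and #9 8 of them.

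Line #10 went the other way. There, 9 of the 10 genes were higher in P12 than in resistant cells, with a median difference of 0.82 on the log2 scale, and Psat1 was lower (-0.29). Trib3 was at 5220 normalized counts in P12 of line #10 and at 336 to 1009 in P12 of the other 5 lines. Chac1 was at 2017 against 165 to 279, Psph at 3603 against 595 to 1110, and Mthfd2 at 5085 against 1221 to 2478. These 4 genes lay far outside the other P12 samples, and Ddit3 (1493 against 265 to 978), Asns (9730 against 1513 to 5261), Atf4 (18943 against 6191 to 12745) Shmt2 (11272 against 5160 to 9702), Phgdh (18233 against 5825 to 15112) and Psat1 (10373 against 7330 to 10112) were also highest in this sample. In the same sample all 9 MAPK output genes were higher than in resistant cells of line #10, and the sum of 8 proliferation genes was the lowest of all P12 samples, at 32964 normalized counts against a P12 median of 55085. The part of the proliferation genes in these levels was not tested.

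The P12 sample of line #10 was left out after its values for these genes were seen, so the values that follow are no separate test. Without this sample, all 10 genes were lower in P12 than in resistant cells on average, with a median log2 fold change of -0.97. An adjusted p below 0.05 was then reached by Chac1 (-2.12, limma adjusted p = 0.0118), Psph (-1.27, adjusted p = 0.0185), Mthfd2 (-0.98, adjusted p = 0.0202) and Asns (-1.27, adjusted p = 0.0467), 4 of the 10 against 5.32% of all genes, and 0 were called by the strict threshold. The ranges over all alternatives were 0.0118 to 0.345, 0.0185 to 0.502, 0.0202 to 0.409 and 0.0467 to 0.477. Leaving this sample out also narrowed the spread used for resistant against parental cells, where Chac1 and Psph then joined Ddit3 past the strict threshold, 3 genes against 5.16% of all genes.

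Compared with parental cells, P12 cells had 0 of the 10 genes called by limma, against 0.114% of all genes, and 0 with an adjusted p below 0.05, against 0.658%, while 2, Ddit3 and Phgdh, had an unadjusted p below 0.05, against 15.3%. Ddit3 was at 265 to 1493 normalized counts in P12 (median 680), above the parental sample in 5 of 6 lines and close to it in line #9 (584 against 586). Its difference passed an adjusted p of 0.05 with the cell line as a block and not without (log2 fold change 1.21, SE 0.43, limma adjusted p = 0.186, 0.0443 with the block, where 5.32% of all genes passed), and it was 58.7% of the difference in resistant cells, or 46.9% without the P12 sample of line #10. In a blocked fit of these states alone the adjusted p was 0.134, which did not pass, and the range over all alternatives was 0.0443 to 0.458. Phgdh was below the parental sample in 5 of 6 lines, line #7 being the other (log2 fold change -0.66, SE 0.26, adjusted p = 0.24), at 5825 to 18233 normalized counts (median 11274). Asns (0.06), Psat1 (-0.08) and Shmt2 (0.07) had the log2 fold changes nearest to 0, with SEs of 0.39, 0.26 and 0.27.

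At P5, measured in 3 lines, 0 of the 10 genes were called by limma against resistant cells (0.378% of all genes) or against parental cells (0.0259%), and 0 had an adjusted p below 0.05 in either comparison (2.07% and 0.0466% of all genes). At an unadjusted p below 0.05 there were 3 (Atf4, Chac1 and Psph) and 0, against 15.4% and 10.4% of all genes. Chac1 was at 115 normalized counts in line #3, 111 in line #7 and 340 in line #9, where resistant cells had 323, 461 and 2034. It was lower in P5 in 3 of 3 lines (log2 fold change -2.52, SE 0.70, limma adjusted p = 0.0678, range over all alternatives 0.0203 to 0.284). Without the P12 sample of line #10, left out after its values were seen, the adjusted p was 0.0203. Chac1 was then the 1 of the 10 genes to pass 0.05, against 2.08% of all genes. In lines #3, #7 and #9 at P5, Psph was at 891, 857 and 945 normalized counts and Ddit3 at 389, 478 and 1034. Ddit3 at P5 lay above the parental sample of each of the 3 lines and below the resistant one, but neither difference passed (log2 fold change 1.05, SE 0.52, adjusted p = 0.497, and -1.01, SE 0.52, adjusted p = 0.367).

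Over the 21 samples, 8 of the 10 genes followed the others closely, and Phgdh and Psat1 did not. The highest correlation of log2 values was that of Atf4 and Psph (Pearson r = 0.857, n = 21), followed by Psph and Chac1 (r = 0.850). For the 8 genes Atf4, Asns, Psph, Shmt2, Mthfd2, Ddit3, Trib3 and Chac1, the r with the mean z-score of the other 9 genes was 0.698 to 0.901, and for Phgdh and Psat1 0.176 and 0.210. The lowest value was that of Phgdh and Ddit3 (r = -0.119). These values describe samples that share lines and states and carry no test. Ranked by the mean z-score of the 10 genes, resistant cells of line #6 stood first (1.54), P12 cells of line #10 next (1.52) and resistant cells of line #4 after them (1.08), while P12 cells of line #3 were lowest (-0.99).

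**Figure D3:**
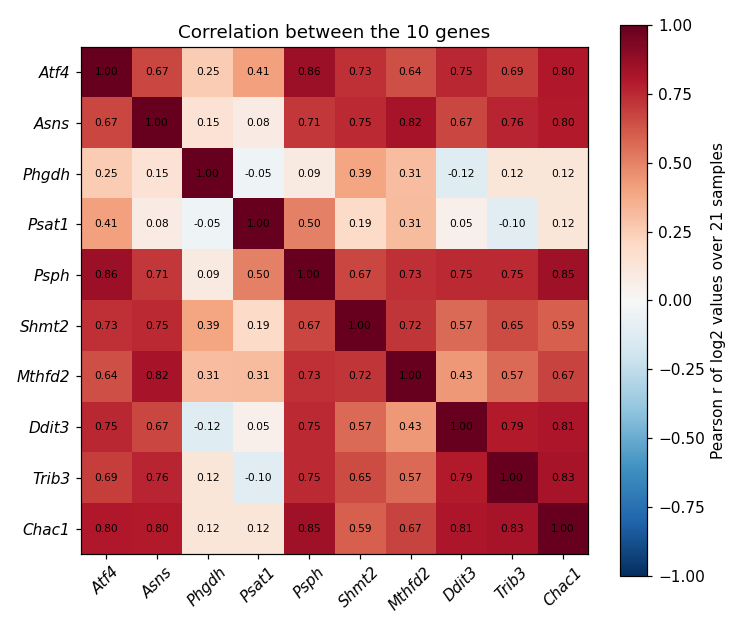
Pearson correlation of log2(normalized count + 1) over the 21 samples for each pair of the 10 genes (both axes), from -1 (blue) to 1 (red). Phgdh and Psat1 have pale cells with most other genes, while Atf4 and Psph reach 0.86.

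Outside the 10 genes, those whose levels followed their mean z-score most closely over the 21 samples were the tRNA synthetases Tars (r = 0.868), Aars (0.867) and Sars (0.842), the translation repressor Eif4ebp1 (0.826) and the amino acid transporter Slc7a5 (0.804). All 5 belong to the lists of ATF4-related genes used here, and the gene that followed, Nfe2l1 (0.792), belongs to none of them.

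Of 20 other ATF4 targets, 1 was called by limma, against 5.3% of all genes, and 3 had an adjusted p below 0.05, all higher, against 15.6% of all genes in either direction and 7.73% higher. The shares called in either direction are near those of all genes, and the median log2 fold change was 0.90. Atf3, a stress-induced factor of the ATF family, was called: it was at 77.7 to 278 normalized counts in parental and 180 to 1947 in resistant cells (5.60-fold, log2 fold change 2.48, SE 0.58, adjusted p = 0.00722), line #3 being the lowest resistant sample. Sesn2, which restrains mTORC1, and the transaminase Gpt2 were the other 2 and are named because they passed (1.29, adjusted p = 0.0436, and 1.33, adjusted p = 0.0319). At an unadjusted p below 0.05, 6 of the 20 were higher and 1 lower, against 29.2% of all genes in either direction. The lower 1 was Stc2, with means of 875 normalized counts in parental and 324 in resistant cells. In P12 cells Atf3 was lower than in resistant cells (-2.04, SE 0.58, adjusted p = 0.0391), the 1 of the 20 to pass, against 6.22% of all genes.

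Of 11 amino acid transporters, 0 passed with limma in resistant cells and 4 had an unadjusted p below 0.05, 3 higher and 1 lower (29.2% of all genes in either direction). The lower one was Slc7a11, with means of 3978 normalized counts in parental and 1141 in resistant cells. The median log2 fold change of the 11 was 0.68. Slc7a5, the large neutral amino acid transporter, had the lowest adjusted p (0.96, SE 0.34, limma adjusted p = 0.0652, 0.0353 with the block) and fell in P12 cells against resistant cells (-1.26, SE 0.34, adjusted p = 0.0322). With the block, 3 of the 11 passed in resistant cells, all higher, where 26% of all genes passed (12.8% higher). Of 13 tRNA synthetases and related genes, 2 rose at an adjusted p below 0.05 (15.6% of all genes passed, 7.73% higher), with a median of 0.11: Yars (0.83, SE 0.20, adjusted p = 0.00898) and Aars (0.67, SE 0.22, adjusted p = 0.04).

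Of 13 other genes of one-carbon metabolism, 2 fell and 0 rose in resistant cells (15.6% of all genes passed, 7.9% lower), with a median of -0.55, and with the block 5 fell (26% of all genes passed, 13.2% lower). Shmt1, the cytosolic partner of Shmt2, was at 1426 to 3138 normalized counts in parental and 450.4 to 1761 in resistant cells (-1.18, SE 0.31, limma adjusted p = 0.0148). It rose again in P12 cells (1.28, SE 0.31, adjusted p = 0.0165) and in P5 cells against resistant cells (1.63, SE 0.38, adjusted p = 0.028). Gldc, which cleaves glycine in mitochondria, was the other (-4.41, SE 1.33, adjusted p = 0.0296). It was at 721 to 4619 normalized counts in parental, 8.38 to 1320 in resistant and 16.9 to 2622 in P12 cells.

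Upstream of ATF4, 2 of 14 genes for eIF2 kinases, eIF2 and its regulators rose in resistant cells at an adjusted p below 0.05 (15.6% of all genes passed, 7.73% higher), with a median of 0.07. With the block 2 were higher and 1 lower, where 26% of all genes passed (12.8% higher and 13.2% lower). Eif2ak3 (PERK) was at 942 to 1961 normalized counts in parental and 1914 to 3756 in resistant cells (0.89, SE 0.23, limma adjusted p = 0.0149) and fell in P12 cells (-0.90, SE 0.23, adjusted p = 0.0248). Impact, an inhibitor of GCN2, was the other (1.01, adjusted p = 0.0251). Eif2ak4 (GCN2) did not pass (-0.30, adjusted p = 0.274), nor did Ppp1r15a (GADD34), the phosphatase subunit that reverses the response (0.31, adjusted p = 0.657). Of 13 genes of the ATF6 and XBP1 arms of the unfolded protein response, 3 rose at an adjusted p below 0.05 (15.6% of all genes passed, 7.73% higher), with a median of 0.39: the chaperones Calr (0.69, SE 0.18, adjusted p = 0.0136), Dnajc3 (0.70, adjusted p = 0.0137) and Hspa5 (0.68, adjusted p = 0.0327). Calr was at 24009 to 38120 normalized counts in parental, 28512 to 66075 in resistant and 20089 to 29429 in P12 cells, and it fell in P12 against resistant cells (-0.98, SE 0.18, adjusted p = 0.00266). Of 8 proliferation genes, 1 fell in resistant cells at an adjusted p below 0.05 (15.6% of all genes passed, 7.9% lower), Rrm2 of ribonucleotide reductase (-1.39, SE 0.39, adjusted p = 0.0208). In line #7 all 8 were higher in resistant than in parental cells (median difference 1.04 on the log2 scale). In the other lines 0 to 3 of the 8 were higher. All 9 MAPK output genes were called lower in resistant cells (5.3% of all genes were called in either direction). In P12 against resistant cells 8 of them were called higher (2.13% of all genes in either direction). Line #7 changed least: there 8 of the 9 were lower in resistant than in parental cells and 1 higher. Its median difference was -3.12 on the log2 scale, against medians of -7.75 to -6.27 in the other lines.

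**Figure D4:**
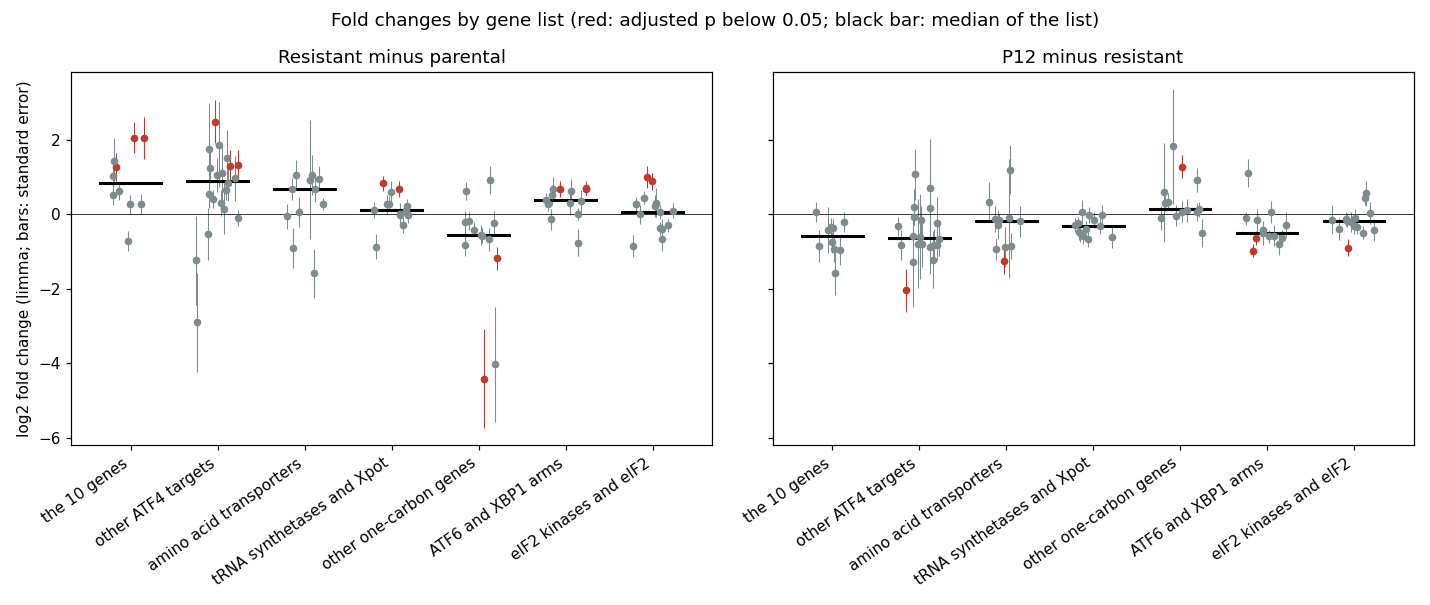
Log2 fold changes from limma (vertical axis, bars are standard errors) of the genes of each list (horizontal axis) for resistant minus parental and P12 minus resistant cells, with genes of adjusted p below 0.05 in red and the median of a list as a black bar. The median is 0.83 for the 10 genes and 0.90 for other ATF4 targets in resistant minus parental cells, and -0.59 and -0.63 in P12 minus resistant cells.

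In P12 cells of line #10, some of the wider lists went the way of the 10 genes and others were split. Of the 20 other ATF4 targets, 19 were higher there than in resistant cells of that line, with a median difference of 1.03 on the log2 scale, and 20 were higher than in its parental cells. In line #7, 13 of the 20 were also higher in P12 than in resistant cells (median 0.64), where 12 of the 20 had been lower in resistant than in parental cells (median -0.92), and in the other 4 lines 1 to 7 of the 20 were higher in P12. Of the 13 tRNA synthetases and related genes, 12 were higher than in resistant cells (median 0.42), against 0 to 3 of 13 in the other 5 lines. Of the 11 amino acid transporters, 5 were higher and 6 lower in line #10 (median -0.08), of the 14 genes for eIF2 and its kinases 6 were higher and 8 lower (median -0.07), and of the 13 genes of the ATF6 and XBP1 arms 4 were higher and 9 lower (median -0.28). These are values of 1 sample against 1 sample and have no replicate check.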

How the data were processed

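Cells of 6 murine PDAC lines were profiled by stranded mRNA-seq in 4 states (21 samples, grouped by the labels). A further allele that all lines share is not reported here. The authors trimmed reads with Skewer (0.1.116 or 0.2.2), quantified transcripts with salmon 0.12, obtained gene-level counts through TXImport 1.6 and normalized these with DESeq2 1.18. The submitters' processing notes name mm10. The deposited values are a signal, normalized gene-level counts. Raw counts could not be recovered, since 68.4% to 78.7% of low values lay on whole-read steps, so count models were not used. The reads of a sample were estimated from these steps, and intervals and floors of this kind cover counting error only.

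Log2(value + 1) was analysed for genes with at least 10 in at least 3 samples. Differences were tested with limma 3.58.1 (R 4.3.3, empirical Bayes with a trend, Benjamini-Hochberg adjustment over all 19300 genes) in a fit of all 4 states. On simulated data with 200 of 19300 genes changed by 3 on the log2 scale, 135 were recovered and 0 others called. The simulated samples shared no deviation of a line, unlike the real ones. The change set was also larger than the log2 fold change of any of the 10 genes, so recovery of smaller changes was not tested. Named genes are the 10 members, in each other list (other ATF4 targets, transporters, tRNA synthetases, one-carbon, ATF6 and XBP1 arms, eIF2 kinases, MAPK output, proliferation, cell type markers) the largest rises and falls called or else the lowest adjusted p, 3 eIF2 regulators, and the 5 genes most like the members. Sesn2, Gpt2, Aars, Gldc, Impact, Dnajc3, Hspa5, Slc7a11 and Stc2 were added after their values were seen. So were the values of Krt8, Krt18, Krt19, Epcam, Pdgfra, Pdgfrb, Dpt and Nfe2l1. The members and lists were chosen with earlier results of these data known, and the lists were recalled from general knowledge.

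Lines pair the samples: the line numbers come from the labels, and samples of a line deviated together (r = 0.159 to 0.352 for resistant and parental cells, 0.337 to 0.52 for P12 and resistant cells, 0.00819 to 0.51 for P12 and parental cells). No pair of samples held identical values. The methods name several sequencers without assigning samples, so batches could not be compared. Alternatives were other pseudocounts, filters and scalings, the line as a block, no trend, the compared states alone, an adjusted p below 0.05 and each line left out. Leaving out the P12 sample of line #10, and the compared states alone with the block, were added after seeing the data. Promoter sequences are those of RefSeq (GRCm38.p6), with all 10 symbols matched. Python 3.11.15, numpy 2.4.6, pandas 2.3.3 and matplotlib 3.10.9 were used.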

Additional observations from a re-analysis of the deposited data

Results flagged for a closer look

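Of 30 groups of 6 samples (10 genes in parental, resistant and P12 cells), 6 had a sample whose gap to the nearest other sample exceeded the 95% critical value of Dixon's test. Chance gives about 1 in 20 for independent groups. The groups here share samples and their genes are correlated, so no excess can be read from the 6. In P12 cells, 4 of the 6 were line #10: Trib3 at 5220 normalized counts (next sample 1009), Chac1 at 2017 (next 279), Psph at 3603 (next 1110) and Mthfd2 at 5085 (next 2478). Psph in resistant cells of line #6, at 5416 normalized counts, stood apart from the next sample at 2126. Psph in parental cells of line #9 was at 1278 with the next sample at 896.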

How the results depend on the processing

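Among the fold changes of the 10 genes between parental, resistant and P12 cells, and those of Chac1 and Ddit3 given for P5 cells, 542 kept their direction and their side of the threshold in use, 12 reversed, 4 came past it and 3 no longer passed it, and the causes were not tested. That threshold was the strict one, except in the alternative of an adjusted p below 0.05 with no fold limit. The 4 were Chac1 and Psph in resistant against parental cells, in that alternative and without the P12 sample of line #10. With each line or the P12 sample of line #10 left out, the log2 fold changes that reversed ranged, for P12 against resistant cells, from -0.16 to 0.26 for Phgdh (below 0 without line #7, without line #10 and without its P12 sample) and from -0.42 to 0.035 for Shmt2 (above 0 without line #6). For P12 against parental cells they ranged from -0.38 to 0.26 for Asns, -0.15 to 0.20 for Shmt2 and -0.16 to 0.72 for Chac1 (below 0 without line #10 or its P12 sample), from -0.012 to 0.54 for Psph (below 0 without line #10) and from -0.21 to 0.025 for Psat1 (above 0 without line #4). In resistant against parental cells, 3 of the 10 genes passed an adjusted p below 0.05 with no fold limit, against 15.6% of all genes. By the strict threshold 3 were called without the P12 sample of line #10, against 5.16% of all genes. With 1 line left out, 0 to 1 were called by the strict threshold, 0 without line #4, #6 or #10. In those fits 450 of 18984 genes (without line #6) to 1237 of 18807 (without line #9) were called.

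Of counts over genes, 123 stayed within 1.5 times the value reported and 47 did not. The counts of all genes called in resistant against parental, P12 against resistant, P12 against parental, P5 against resistant and P5 against parental cells were 1023, 412, 22, 73 and 5. With the cell line as a replicate block the first 4 were 2017, 872, 101 and 118, and at an adjusted p below 0.05 all 5 were 3016, 1201, 127, 399 and 9. With the compared states alone the last 4 were 93, 12, 14 and 1, and with the block added 3, 0 and 0 for the last 3. A mean of at least 100 gave 5 for P12 against parental cells and 3 for P5 against parental cells. With each line or the P12 sample of line #10 left out, the 5 counts ranged from 450 to 1237, 132 to 467, 4 to 68, 23 to 74 and 1 to 6. The block changed no other strict call among the 10 genes. Depth did not limit the 10 genes, whose lowest value was 111 normalized counts.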
